A study of Mus musculus with 30 samples.

Results

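The genes described here are 9 membrane transporters of mouse brain vessels, 4 organic anion transporting polypeptides (Slco1a4, Slco1a5, Slco1c1 and Slco2b1) and 5 ATP-driven efflux pumps of the ABC family (Abcb1a, Abcg2, Abcc4, Abcc1 and Abcc5). They were chosen by name, and every probe set that the array's annotation pairs with exactly 1 of them was read, which gave 23 of 34958 such probe sets, for 9 of 18194 genes. RNA of brain microvascular fragments, short pieces of vessel with the cells attached to them, had been hybridised to 30 Affymetrix mouse arrays, and the values are log2 signals made by GCRMA, which corrects each probe for background and puts the arrays on 1 distribution. The study set 2 mouse models with few pericytes, the cells that wrap brain capillaries, against their controls.

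Ret mutants (pdgfb ret/ret, C57/B6/J, 4 arrays, 7 to 10 months old) lack the retention motif of platelet-derived growth factor B on both alleles, and their controls were heterozygous (pdgfb ret/+, same strain, 4 arrays, 8 to 10 months old), so that controls also carried 1 such allele. No brain region is named for them. R26P mutants (Tie2Cre, R26P+/0, pdgfb-/-, mixed C57/SV129 background) have no mouse Pdgfb and make human PDGF-B from a Rosa 26 transgene that Cre under the Tie2 promoter switches on. Their controls (R26P+/0, pdgfb+/+, same background) carry the silent transgene and no Cre, so Cre and the loss of Pdgfb cannot be told apart. Each R26P genotype gave 4 arrays of cerebrum and 4 of cerebellum, with 1 year as the age in the sample titles and 2 months in the age field. Wild-type mice (Notch3+/+, C57/B6/J, 2 months old) gave 3 arrays of cerebellum and 3 of cerebrum. The sex labels are unequal between the ret groups, with 1 male and 3 female mutants against 3 male and 1 female controls. The labels of all 4 ret controls went against their Xist and Eif2s3y signals (transcripts of the inactive X and of the Y chromosome), while the other 26 arrays matched theirs. By those transcripts each ret group held 3 females and 1 male. With Xist as a covariate, Slco1a5 was the 1 gene of the 9 that passed in ret mutants, as it was with the sex label. The labels call the arrays biological replicates, and the number of arrays limits the precision.

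Each gene was represented by its probe set with the highest mean signal, and genes above 4 log2 units on at least 3 arrays were tested, which left 11243 genes, all 9 transporters among them. "Passed" below means an adjusted p under 0.05 in limma, adjusted by the Benjamini-Hochberg method over those 11243 genes. The wild-type arrays had been normalized apart from the other 24 (their lowest value is 2.17, against 2.16), so wild type was compared only between its own regions. The fragments carried endothelial RNA on all arrays, with a mean over 18 pan-endothelial markers between 12.73 and 13.41 on the 24 model arrays. On the separately normalized wild-type arrays this mean was 12.50 to 12.67. In R26P cerebellum this mean was 13.21 to 13.30 in mutants against 12.73 to 13.01 in controls, without overlap. The groups overlapped in ret and, narrowly, in R26P cerebrum. Of the 18 markers, 2 were higher and 1 lower in ret mutants, and 6 higher and 1 lower in R26P cerebrum. In R26P cerebellum 8 were higher and 0 lower. The mean over 10 pericyte markers was lower in mutants and did not overlap with controls, at 6.74 to 7.77 in ret mutants against 10.64 to 11.15 in ret controls, 7.07 to 8.67 in R26P mutant against 11.56 to 11.81 in R26P control cerebrum, and 8.11 to 9.72 in R26P mutant against 12.38 to 12.47 in R26P control cerebellum. Fewer cells of a type and less RNA per cell cannot be told apart in such samples. R26P mutant pair 3 (cerebrum and cerebellum of number 3) has region labels that earlier results put in doubt, and Gh, the growth hormone gene of the pituitary, stood at 13.68 or more on 9 arrays of several groups. The R26P mutant comparisons were also run without pair 3, and the ret and the R26P cerebrum comparisons with Gh as a covariate, but no comparison that takes in cerebellum arrays was run with Gh, though R26P mutant cerebellum 3 and wild-type cerebrum 3 carried it. With Gh as a covariate the ret log2 change was 0.39 for Slco2b1 (adjusted p = 0.297 by limma), 0.11 for Slco1c1 (adjusted p = 0.743) and 0.05 for Abcb1a (adjusted p = 0.908), the last 2 with a change of sign, and Slco1a5 was again the 1 transporter that passed. Gh was high in ret mutants 1, 2 and 4 and in no ret control, so these adjusted ret changes rest largely on mutant 3.

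Organic anion transporting polypeptides exchange bile acids, steroid conjugates, thyroid hormones, prostaglandins and many drugs across cell membranes without using ATP. ABC efflux pumps use ATP to move drugs and conjugates out of the cell, and at the blood-brain barrier the lumen-facing pumps return many drugs to the blood. In rodents, Slco1a4 and Slco1c1 are known as transporters of the brain endothelium, whereas Slco1a5 is known from the choroid plexus and the intestine.

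Slco1a5, Slco1a4 and Slco1c1 lie on chromosome 6 in 1 cluster of Slco1 genes, and their start regions are shown because Slco1a5 changed greatly while its neighbours in the cluster did not pass. The sequences are RefSeq's (mouse build GRCm38.p6), each from 250 bases before to 50 bases after an annotated start and written 5′ to 3′ on the strand of the gene. Slco1a5 has 2 annotated starts, at chr6:142322932-142323231 and chr6:142278825-142279124 (minus strand); Slco1a4 has 1 at chr6:141856171-141856470 (minus strand) and Slco1c1 has 1 at chr6:141524104-141524403 (plus strand). Capitals mark the motifs TATAAA (the TATA box core) and CTTTGA (a core bound by TCF/LEF factors).
Slco1a5 start 1: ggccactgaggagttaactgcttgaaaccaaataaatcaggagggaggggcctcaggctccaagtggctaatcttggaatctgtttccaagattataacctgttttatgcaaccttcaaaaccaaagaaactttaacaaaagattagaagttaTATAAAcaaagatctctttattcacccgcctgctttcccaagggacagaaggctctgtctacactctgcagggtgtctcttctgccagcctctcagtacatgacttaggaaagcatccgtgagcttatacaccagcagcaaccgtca
Slco1a5 start 2: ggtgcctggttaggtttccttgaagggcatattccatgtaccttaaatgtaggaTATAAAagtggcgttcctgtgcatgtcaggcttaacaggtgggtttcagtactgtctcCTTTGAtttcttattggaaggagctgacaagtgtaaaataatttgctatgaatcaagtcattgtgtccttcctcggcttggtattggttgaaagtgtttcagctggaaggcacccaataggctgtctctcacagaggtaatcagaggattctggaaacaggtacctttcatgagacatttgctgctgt
Slco1a4 start: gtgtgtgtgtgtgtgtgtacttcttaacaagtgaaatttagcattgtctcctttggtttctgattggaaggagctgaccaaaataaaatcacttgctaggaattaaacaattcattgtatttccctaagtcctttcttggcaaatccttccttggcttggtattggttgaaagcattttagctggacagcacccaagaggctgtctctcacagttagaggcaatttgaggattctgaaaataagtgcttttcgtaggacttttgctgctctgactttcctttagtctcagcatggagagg
Slco1c1 start: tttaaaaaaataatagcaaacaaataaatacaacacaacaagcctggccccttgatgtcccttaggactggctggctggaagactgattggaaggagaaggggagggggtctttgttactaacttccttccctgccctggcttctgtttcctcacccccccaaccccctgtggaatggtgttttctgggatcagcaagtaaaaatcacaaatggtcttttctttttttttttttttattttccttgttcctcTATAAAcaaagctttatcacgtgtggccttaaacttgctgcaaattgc

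Counted from the start, TATAAA was found at position −97 of the first Slco1a5 start, −196 of the second and 2 of the Slco1c1 start. CTTTGA was found once, at −138 of the second Slco1a5 start. The windows were also searched, on both strands, for GCGTG (a core bound by the aryl hydrocarbon receptor), GTAAACA (forkhead factors), TGACNNNGC (the antioxidant response core) and AGGTCA (nuclear receptors), and held none of these 4, while the Slco1a4 window held none of the 6; no marked motif overlaps another. Of 32851 start windows of the same length, 13.6% hold TATAAA, 16% CTTTGA, 32.4% GCGTG, 3.65% GTAAACA, 12.4% TGACNNNGC and 16.3% AGGTCA, so these matches are common and only describe the letters. The window of the second Slco1a5 start resembled that of Slco1a4 more than the first did: aligned end to end, 57.4% of positions were identical, with a shared run of 20 bases (ggcttggtattggttgaaag), against 47.8% for the first start, 45.2% for Slco1c1 with Slco1a4 and 42.0% for Slco1c1 with the second Slco1a5 start. The array does not tell which start was used.

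Slco1a5 was the 1 transporter of the 9 that passed in the mutant comparisons, and it was higher in mutants of both models and both regions. Its signal was 10.64, 10.97, 10.61 and 10.31 in ret mutants 1 to 4, against 4.22, 4.66, 4.69 and 2.70 in ret controls. In R26P cerebrum it was 9.88, 10.62, 10.08 and 10.52 in mutants, against 4.67, 5.76, 5.02 and 4.69 in controls. In R26P cerebellum it was 9.57, 9.99, 10.25 and 10.61 in mutants, against 5.88, 7.04, 5.17 and 5.49 in controls. Every one of the 12 mutant arrays stood above all 12 control arrays, and the highest control, R26P control cerebellum 2, was still well below the lowest mutant array. Same-numbered R26P arrays of cerebrum and cerebellum deviated together from their group means, so the regions are not independent.

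In log2 units the rise was 6.56 ± 0.43 (SE) in ret mutants (94.6-fold, adjusted p = 2.1e-04 by limma), 5.24 ± 0.28 in R26P cerebrum (37.7-fold, adjusted p = 3.7e-05) and 4.21 ± 0.41 in R26P cerebellum (18.5-fold, adjusted p = 6.9e-04). The 95% intervals of the fold run from 47.0 to 191 in ret mutants, from 24.3 to 58.7 in the cerebrum and from 9.58 to 35.8 in the cerebellum of R26P mutants. The control signals lie near the low end of the scale, where the background correction sets much of the value, so the size of the fold is less certain than its direction. Of all genes tested, 8% were higher in ret mutants, 8.35% in R26P mutant cerebrum and 6.94% in R26P mutant cerebellum. The other 8 transporters did not pass in any of the 3 comparisons, and none of the 9 was called lower, where 8.63%, 10.3% and 8.7% of all genes were.

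**Figure D1:**
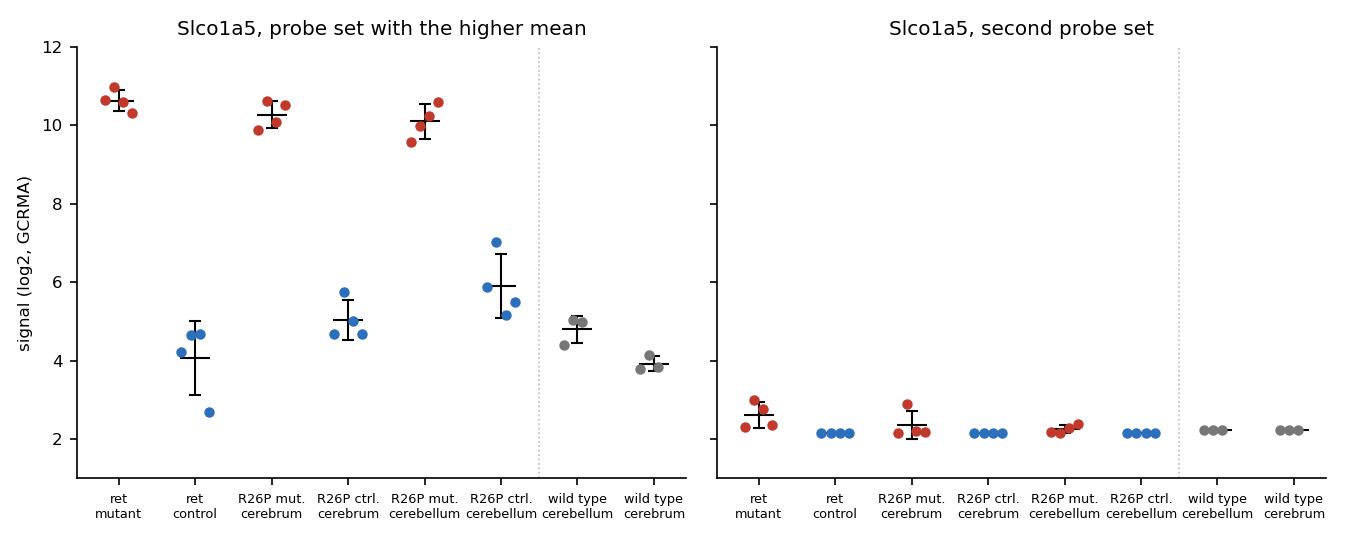
Log2 signal of Slco1a5 on each of the 30 arrays, for its probe set with the higher mean (left) and its second probe set (right). Points are arrays (red mutants, blue controls, grey wild type), bars are group means with SD, and the dotted line sets apart the wild-type arrays, which were normalized separately. All 12 mutant arrays of the left panel lie between 9.57 and 10.97, above every control.

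The second probe set of Slco1a5 gave little signal anywhere. It was at the lowest value of 2.16 on all 12 control arrays, at 2.31, 3.00, 2.78 and 2.35 in ret mutants 1 to 4, at 2.16, 2.89, 2.21 and 2.18 in R26P mutant cerebrum and at 2.19, 2.16, 2.28 and 2.38 in R26P mutant cerebellum. It did not meet the filter and was not tested, but 10 of 12 mutant arrays were above the lowest value and no control was; all 6 wild-type arrays, normalized apart, read 2.22. Averaging both probe sets gave log2 changes of 3.51, 2.72 and 2.15 in ret, R26P cerebrum and R26P cerebellum, and Slco1a5 still passed in all 3. Pairing of a probe set with 1 gene was taken from the annotation, and whether the probes also bind transcripts of the related Slco1a genes was not tested.

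Markers of other tissues varied between the arrays. Gh stood at 14.90, 13.68, 2.84 and 15.23 in ret mutants and at 2.17 to 2.47 in ret controls, while ret mutant 3, with little Gh, had Slco1a5 at 10.61. With Gh as a covariate the log2 change in ret mutants was 6.56 (adjusted p = 0.0066 by limma). Because Gh nearly follows genotype in ret, this fit rests largely on ret mutant 3 and cannot separate Gh from genotype in the others. The choroid plexus list, relevant because Slco1a5 is known from that tissue, had an array mean of 7.44 to 10.38 in ret mutants against 8.07 to 9.46 in ret controls, 8.58 to 10.34 in R26P mutant against 9.81 to 11.10 in R26P control cerebrum, and 10.26 to 11.14 in R26P mutant against 10.84 to 12.41 in R26P control cerebellum. Of its 11 tested markers 0 were higher in any mutant comparison, where 6.94 to 8.35% of all genes were, and 1 was lower, in R26P cerebrum. The list medians were −0.17 in ret mutants, −1.41 in the cerebrum and −1.21 in the cerebellum of R26P mutants. Ttr, the transthyretin gene and the most abundant choroid plexus marker, was high on every array, and Foxj1, of ciliated ependymal cells, did not meet the filter. The part of choroid plexus RNA in the Slco1a5 values was not tested. The blood leukocyte and erythrocyte list had only 3 tested genes, and its array mean was taken over these alone. That mean was higher in mutants without overlap in ret (7.69 to 8.61 in mutants against 5.40 to 6.28 in controls) and in R26P cerebrum (7.47 to 9.17 in mutants against 5.66 to 6.66 in controls), and overlapped in R26P cerebellum (6.40 to 9.004 in mutants against 6.16 to 7.67 in controls). Of the 3 tested genes 2 were higher in ret mutants, Plac8 and Ptprc, 1 in R26P cerebrum, Plac8, and 0 in R26P cerebellum, where 6.94 to 8.35% of all genes were higher in these comparisons. None of the 3 was lower. The other 6 on the array, S100a8, S100a9, Cd3e, Cd79a, Hba-a1 and Alas2, did not meet the filter and are not in the mean. The part of blood cells in the Slco1a5 values was not tested. Leaving out R26P mutant pair 3, the log2 change of Slco1a5 was 5.30 in cerebrum (adjusted p = 1.8e-04 by limma) and 4.16 in cerebellum (adjusted p = 0.0044).

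Among the R26P mutants, the arrays of number 4 had the lowest pericyte marker means, 7.07 in cerebrum and 8.11 in cerebellum, with Slco1a5 at 10.52 and 10.61. The arrays of number 1 had pericyte means of 8.19 and 9.49 and the lowest Slco1a5 of each region, 9.88 and 9.57. The orders did not match throughout: mutant cerebrum 2 had the highest Slco1a5 of its group, 10.62, at a pericyte mean of 8.35. A relation between the pericyte level of an array and its Slco1a5 signal within mutants was not tested.

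Ordered by mean, Slco1a5 was highest in ret mutants (10.63 ± 0.27, SD, n = 4), then R26P mutant cerebrum (10.27 ± 0.35) and R26P mutant cerebellum (10.10 ± 0.44), and neighbours in this order overlapped. Among the controls of the same normalization the order was R26P cerebellum (5.89 ± 0.82), R26P cerebrum (5.04 ± 0.51) and ret (4.07 ± 0.94), again with overlap between neighbours. The group means of mutants lay closer to each other than those of controls. The rise in ret mutants exceeded that in R26P cerebrum by 1.33 log2 units (95% interval 0.18 to 2.48), which did not pass (adjusted p = 0.171 by limma). The rise in R26P cerebellum was smaller than that in cerebrum by a log2 difference of −1.03 (95% interval −2.14 to 0.08, adjusted p = 1.00), in a fit that did not pair the regions. With the replicate number as a block, the adjusted p of this difference was 0.26 by limma. None of the 9 transporters passed in these tests of a difference between effects, where 3.35% of all genes passed between models and 0.116% between regions.

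The Slco1 cluster on chromosome 6 holds 6 Slco1 genes of the annotation within 0.799 Mb (chr6:141524354-142322981, GRCm38.p6). Slco1a4 (chr6:141805438-141856284) lies 378 kb from Slco1a5 (chr6:142234227-142322981), and Slco1c1 (chr6:141524354-141570177) 664 kb. The 3 other Slco1 genes between them, Slco1b2, Slco1a1 and Slco1a6, known in mouse mainly from liver and kidney, stayed within 2.16 and 2.78 on all 30 arrays and did not meet the filter. Slco1a6, the nearest at 48.0 kb, did not exceed 2.26 on any array. Iapp, which the annotation places inside the span of Slco1a5, did not exceed 2.93.

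On the other side, Pyroxd1, Recql and Golt1b begin 22.6 to 64.2 kb away, were expressed, and did not pass in any mutant comparison, with log2 changes between −0.21 and 0.48. Kcnj8 and Abcc9, the subunits of the pericyte potassium channel, lie 242 and 265 kb away and changed in the opposite direction. Kcnj8 fell by 3.87 in ret mutants, 4.68 in R26P mutant cerebrum and 4.61 in R26P mutant cerebellum on the log2 scale, and Abcc9 fell by 4.96, 4.82 and 4.42. Ldhb, a lactate dehydrogenase subunit gene between Golt1b and Kcnj8, fell by 0.61 in R26P mutant cerebrum (adjusted p = 0.0253 by limma). Apart from Slco1a5, none of the tested genes of the stretch drawn in the plot rose in any mutant comparison.

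**Figure D2:**
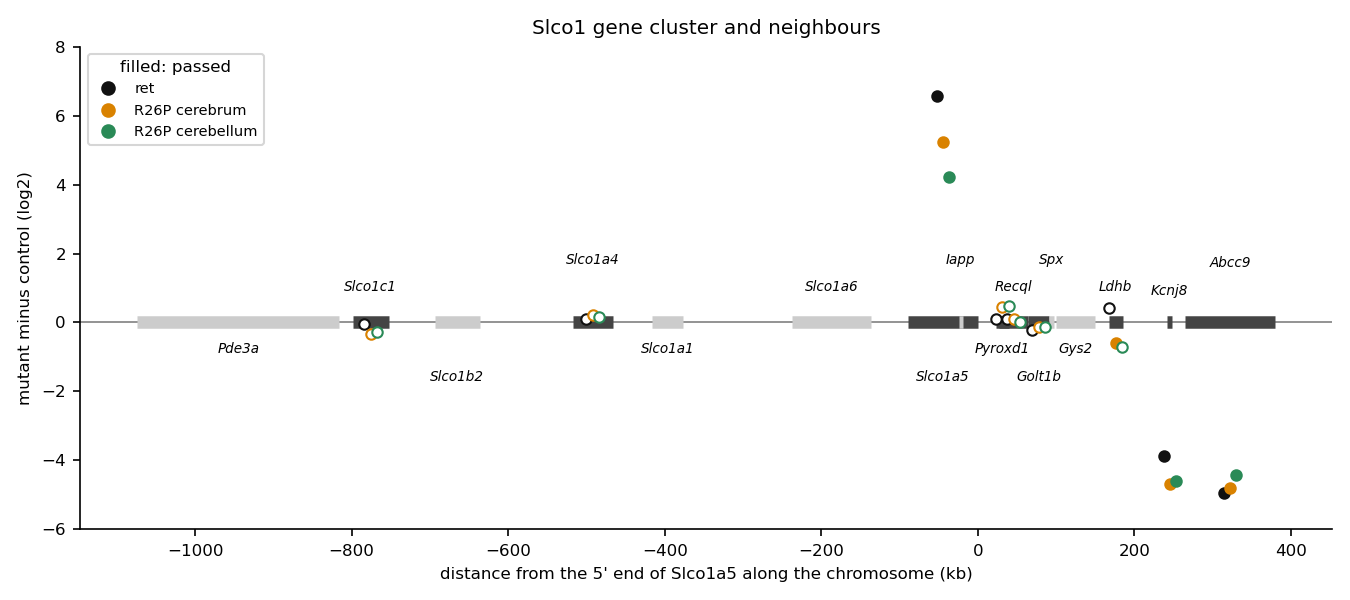
Log2 change in mutants against controls for genes around Slco1a5, by distance along the chromosome from its 5′ end (kb). Bars are gene spans (dark tested, pale below the filter), points are the 3 mutant comparisons, and filled points passed the threshold. Slco1a5 stands at 4.21 to 6.56, Slco1a4 and Slco1c1 lie near 0, and Kcnj8 and Abcc9 fell.

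Slco1a4, the transporter that carries bile acids, steroid conjugates and digoxin in rodent brain endothelium, was high on every array and did not pass. Its signal was 15.97, 15.95, 16.10 and 15.93 in ret mutants against 15.84, 15.96, 15.74 and 15.996 in ret controls, and the groups overlapped. In R26P cerebrum it was 15.66, 15.89, 15.83 and 15.70 in mutants against 15.53, 15.57, 15.53 and 15.60 in controls. In R26P cerebellum it was 15.70, 15.82, 15.87 and 15.75 in mutants against 15.70, 15.75, 15.53 and 15.58 in controls. The cerebrum groups did not overlap, but the difference of 0.21 ± 0.08 (SE, log2) missed the threshold (adjusted p = 0.0876 by limma), as did 0.11 in ret mutants (adjusted p = 0.399) and 0.14 in R26P cerebellum (adjusted p = 0.24). With an intensity trend and a robust prior the cerebrum difference passed (adjusted p = 0.0308). With endothelial genes as the reference it was 0.03 in R26P cerebrum (adjusted p = 0.852), and the other differences were 0.02 in ret (adjusted p = 0.923) and −0.18 in R26P cerebellum (adjusted p = 0.147). Slco1a4 was within 0.36 to 0.76 log2 units of the highest value on every array, so the scale leaves little room above it.

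Slco1c1, the thyroxine transporter of the brain endothelium, was at 14.96, 14.93, 15.08 and 14.73 in ret mutants against 14.99, 15.04, 14.78 and 15.11 in ret controls. In R26P cerebrum it was 14.22, 14.29, 14.48 and 13.97 in mutants against 14.63, 14.74, 14.44 and 14.54 in controls. In R26P cerebellum it was 14.50, 14.45, 14.47 and 14.20 in mutants against 14.75, 14.88, 14.68 and 14.43 in controls. Groups overlapped in all 3 comparisons, by 1 mutant array, number 3, in cerebrum. The log2 change was −0.06 ± 0.10 (SE) in ret mutants (adjusted p = 0.74 by limma), −0.35 ± 0.12 in R26P cerebrum (adjusted p = 0.085) and −0.28 ± 0.12 in R26P cerebellum (adjusted p = 0.15). Without mutant pair 3 it was −0.43 in cerebrum and passed (adjusted p = 0.047), and it also passed there after renewed quantile normalization (−0.43, adjusted p = 0.0419). With endothelial genes as the reference it passed in cerebrum (−0.53, adjusted p = 0.0113) and in cerebellum (−0.60, adjusted p = 0.0042), a setting that moves the median of all genes by −0.18 and −0.33.

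Slco2b1 (chr7:99657804-99711340, GRCm38.p6) carries steroid sulphates and several drugs and is expressed in mouse brain in microglia as well as endothelium. It was at 13.17, 13.34, 13.78 and 13.40 in ret mutants against 13.54, 13.31, 13.20 and 13.62 in ret controls, a log2 change of 0.01 ± 0.15 (SE, adjusted p = 0.984 by limma). In R26P cerebrum it was 12.90, 12.70, 12.54 and 12.79 in mutants against 13.38, 12.70, 13.41 and 13.44 in controls. In R26P cerebellum it was 12.79, 12.18, 12.36 and 12.27 in mutants against 13.09, 12.28, 12.95 and 13.15 in controls. Control number 2 stood apart from the other 3 controls in both regions and alone made the groups overlap.

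The log2 change of Slco2b1 was −0.50 ± 0.18 (SE) in R26P cerebrum (adjusted p = 0.0889 by limma) and −0.47 ± 0.22 in R26P cerebellum (adjusted p = 0.187). Without control number 2 of the region it passed, at −0.68 in cerebrum (adjusted p = 0.0073) and −0.66 in cerebellum (adjusted p = 0.04). With endothelial genes as the reference it also passed in cerebellum (−0.79, adjusted p = 0.0309 by limma), where the median of all genes was then −0.33. As the mean of its probe sets it passed in cerebrum (−0.45, adjusted p = 0.0299 by limma). The second probe set was at 11.35, 11.49, 11.16 and 11.29 in R26P mutant cerebrum against 12.33, 11.72, 12.35 and 12.24 in R26P control cerebrum, without overlap. Its log2 change there was −0.84 ± 0.15 (SE, adjusted p = 0.0114 by limma over 18851 probe sets), against −0.54 ± 0.22 in cerebellum (adjusted p = 0.149) and −0.01 ± 0.16 in ret mutants (adjusted p = 0.984). The third probe set was at the lowest value on all arrays. The mean of 11 microglia and macrophage markers, none of them at the lowest value, was 10.10 to 11.75 in R26P mutant against 10.56 to 11.68 in R26P control cerebrum, and 9.84 to 11.34 in R26P mutant against 10.49 to 11.22 in R26P control cerebellum. In controls number 2 that mean was 10.56 in cerebrum and 10.49 in cerebellum, the lowest control of each region. Of the 11 markers, 0 were higher and 2 lower in R26P cerebrum, 0 higher and 1 lower in R26P cerebellum, and 1 higher and 0 lower in ret mutants. Their part in the Slco2b1 values was not tested.

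**Figure D3:**
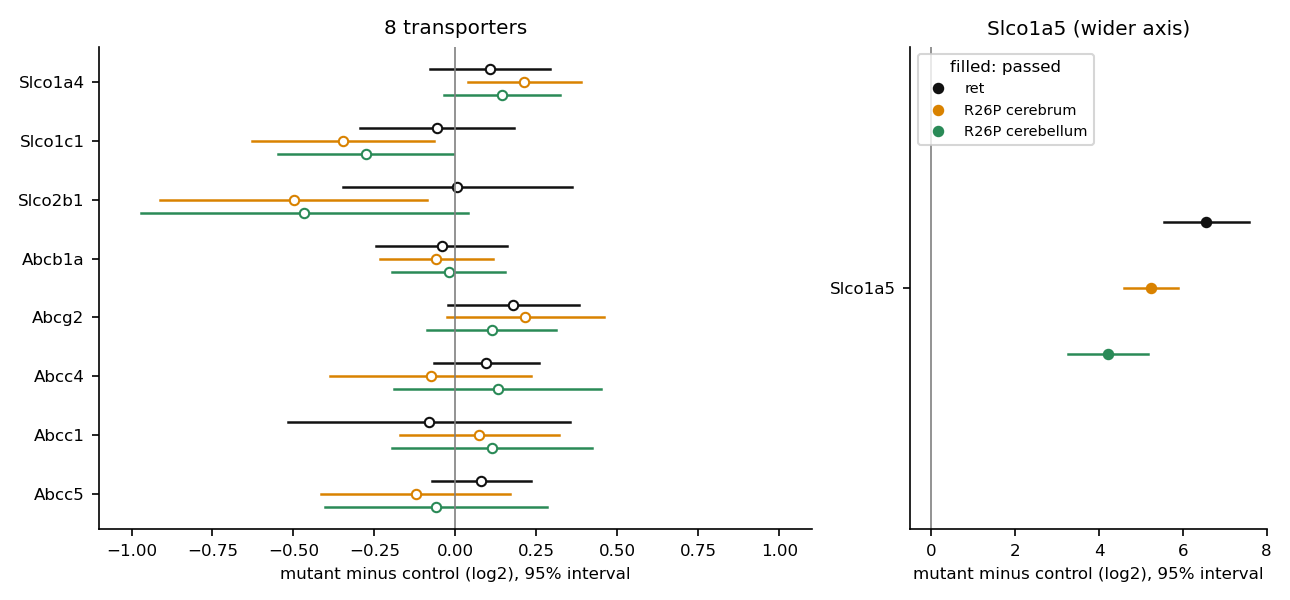
Log2 change in mutants against controls with its 95% interval for the 8 transporters other than Slco1a5 (left) and for Slco1a5 on a wider axis (right), each by its probe set with the highest mean. Colours are the ret, R26P cerebrum and R26P cerebellum comparisons, and filled points passed the threshold. Only Slco1a5 passed, and the lowest limit of the others is −0.97, for Slco2b1 in R26P cerebellum.

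Abcb1a (chr5:8567091-8748575), which encodes P-glycoprotein, the main drug efflux pump of the mouse blood-brain barrier, was nearly level between the mutants and controls of each model. It was at 14.85, 14.91, 14.97 and 14.83 in ret mutants against 14.83, 14.99, 14.79 and 15.11 in ret controls. In R26P cerebrum it was 14.51, 14.63, 14.60 and 14.52 in mutants against 14.51, 14.73, 14.64 and 14.60 in controls. In R26P cerebellum it was 14.72, 14.62, 14.66 and 14.63 in mutants against 14.60, 14.83, 14.71 and 14.60 in controls. All 3 pairs of groups overlapped, and the log2 changes of −0.04 ± 0.09, −0.06 ± 0.08 and −0.02 ± 0.08 (SE) did not pass (adjusted p = 0.776, 0.609 and 0.873 by limma). For this probe set the 95% intervals reach a change of 1.18-fold in ret mutants, 1.18-fold in the cerebrum and 1.14-fold in the cerebellum of R26P mutants. The second probe set gave −0.14, −0.12 and −0.05, none of which passed. With endothelial genes as the reference, Abcb1a passed as lower in R26P cerebellum (−0.35, adjusted p = 0.0194 by limma). The median of all genes in that setting was −0.33, so Abcb1a lay close to it.

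Abcg2 (chr6:58584491-58692451), the breast cancer resistance protein, which also faces the vessel lumen, was at 14.56, 14.62, 14.59 and 14.46 in ret mutants against 14.30, 14.44, 14.23 and 14.55 in ret controls. In R26P cerebrum it was 14.05, 14.43, 14.33 and 14.11 in mutants against 14.02, 14.08, 13.89 and 14.06 in controls. In R26P cerebellum it was 14.24, 14.27, 14.39 and 14.16 in mutants against 14.13, 14.32, 14.12 and 14.05 in controls. Mutant means were above control means in all 3, with overlapping groups, and the log2 changes of 0.18 ± 0.09, 0.22 ± 0.11 and 0.11 ± 0.09 (SE) did not pass (adjusted p = 0.196, 0.19 and 0.41 by limma). A rise of up to 1.30-fold in ret mutants, 1.37-fold in the cerebrum and 1.24-fold in the cerebellum of R26P mutants lies within the 95% intervals. With endothelial genes as the reference the differences were 0.09 in ret mutants and, in R26P mutants, 0.03 in cerebrum and −0.22 in cerebellum, and did not pass there either.

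The 3 multidrug resistance proteins of the ABCC family, each by its probe set with the highest mean, did not pass in any mutant comparison. Abcc4 (chr14:118482692-118707856), a lumen-facing pump of conjugates and cyclic nucleotides, ranged from 13.82 to 13.94 in ret mutants against 13.63 to 13.84 in ret controls, from 13.25 to 13.50 in R26P mutant against 13.10 to 13.71 in R26P control cerebrum, and from 13.30 to 13.70 in R26P mutant against 13.03 to 13.58 in R26P control cerebellum. Its log2 changes were 0.10 ± 0.07, −0.08 ± 0.13 and 0.13 ± 0.14 (SE), with adjusted p = 0.383, 0.718 and 0.549 by limma. Its signs differed between the comparisons, and no pair of groups was apart.

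Abcc1 (chr16:14361453-14474878), which exports glutathione conjugates and leukotriene C4, ranged from 8.52 to 9.37 in ret mutants against 8.83 to 9.28 in ret controls, from 9.10 to 9.40 in R26P mutant against 9.01 to 9.30 in R26P control cerebrum, and from 9.24 to 9.53 in R26P mutant against 8.88 to 9.40 in R26P control cerebellum. Its log2 changes were −0.08 ± 0.19, 0.07 ± 0.11 and 0.11 ± 0.13 (SE), with adjusted p = 0.803, 0.65 and 0.594 by limma. The wide interval in ret mutants (−0.52 to 0.35) follows the spread of that group, which was the widest of the 8 groups for this gene. Its second probe set stayed between 2.17 and 2.64 on the 24 model arrays.

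Abcc5 (chr16:20331303-20426428), a pump of cyclic nucleotides and organic anions, had 10 probe sets, of which 6 met the filter. The one with the highest mean ranged from 9.67 to 9.72 in ret mutants against 9.50 to 9.73 in ret controls, from 9.46 to 9.92 in R26P mutant against 9.52 to 9.85 in R26P control cerebrum, and from 9.69 to 9.84 in R26P mutant against 9.45 to 10.11 in R26P control cerebellum. Its log2 changes of 0.08 ± 0.07, −0.12 ± 0.13 and −0.06 ± 0.15 (SE) did not pass (adjusted p = 0.436, 0.526 and 0.816 by limma). With endothelial genes as the reference it passed as lower in R26P cerebellum (−0.39, adjusted p = 0.0332 by limma), where the median of all genes was then −0.33.

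The probe sets of Abcc5 differed in size and, in R26P mutants, in sign. The second was at 7.88, 8.31, 7.87 and 8.13 in ret mutants against 7.79, 7.37, 7.47 and 7.34 in ret controls, without overlap, a log2 change of 0.55 ± 0.14 (SE, adjusted p = 0.0379 over 18851 probe sets by limma), and gave 0.45 and 0.35 in R26P cerebrum and cerebellum (adjusted p = 0.225 and 0.208). The sixth was at 3.05, 3.05, 3.20 and 3.04 in R26P mutant cerebrum against 4.22, 4.79, 4.20 and 3.40 in R26P control cerebrum, a log2 change of −1.07 ± 0.26 (adjusted p = 0.0311), at signals near the low end of the scale. In ret mutants all 6 tested probe sets had positive changes, 0.00 to 0.75, the largest that of the fourth (adjusted p = 0.114). In R26P cerebrum the signs were mixed, with 0.54 for the fourth (adjusted p = 0.0887) beside those of the second and the sixth.

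**Figure D4:**
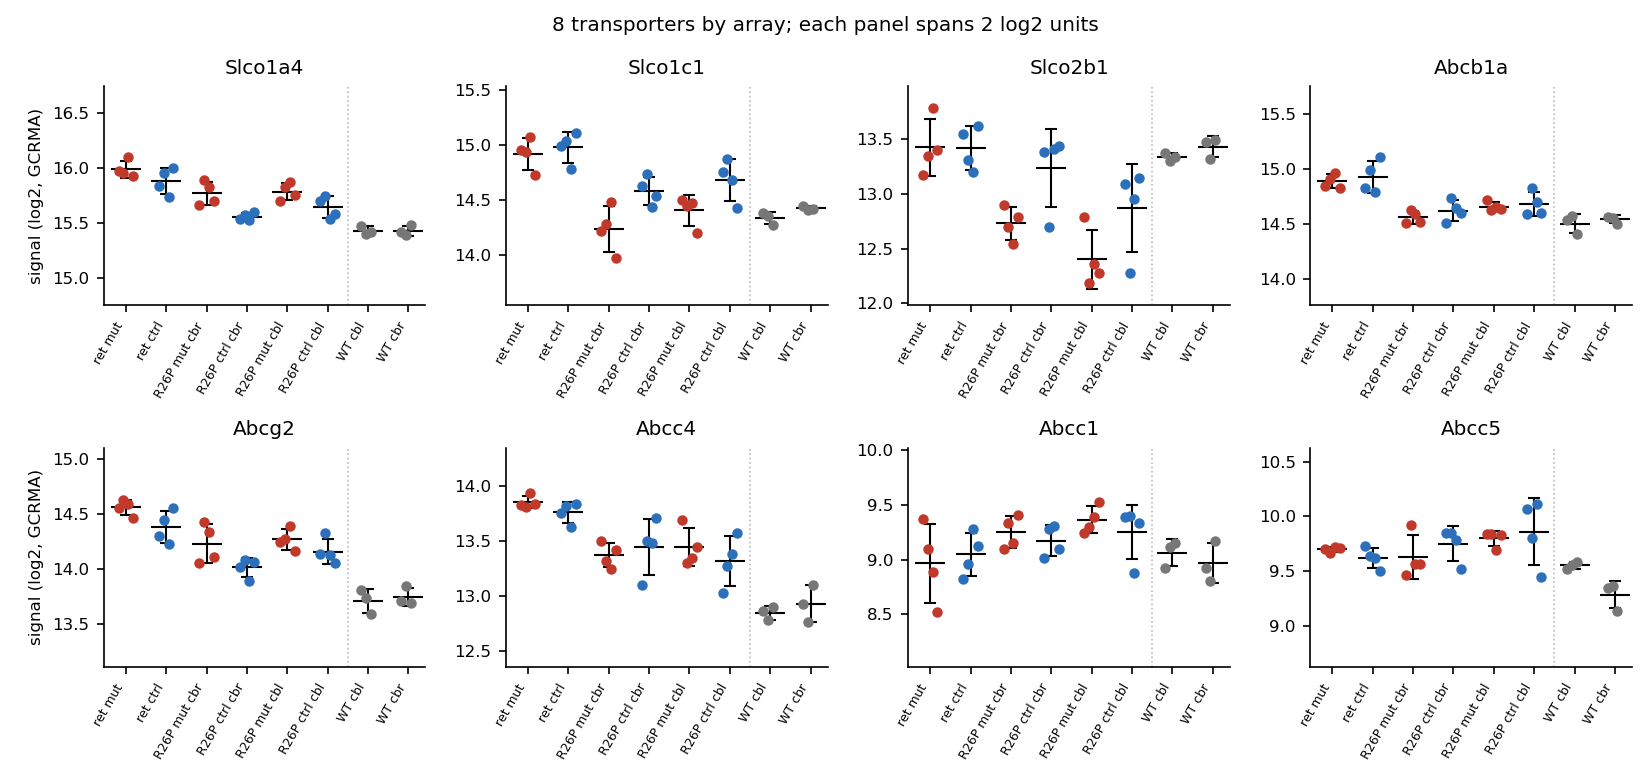
Log2 signal on each array for the 8 transporters other than Slco1a5, each by its probe set with the highest mean, in panels that all span 2 log2 units. Points are arrays (red mutants, blue controls, grey wild type), bars are means with SD, cbr is cerebrum and cbl cerebellum, and the dotted line sets apart the separately normalized wild type. Slco2b1 and Slco1c1 stand lower in R26P mutants, with overlapping groups, and the low Slco2b1 control in each region is number 2.

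Over the 8 transporters other than Slco1a5, each by its probe set with the highest mean, the log2 changes ran from −0.08 to 0.18 in ret mutants, from −0.50 to 0.22 in the cerebrum and from −0.47 to 0.14 in the cerebellum of R26P mutants. The 95% intervals of these probe sets reach a 1.43-fold change in ret mutants (Abcc1), 1.88-fold in the cerebrum (Slco2b1) and 1.96-fold in the cerebellum of R26P mutants (Slco2b1), and they do not cover the second probe set of Slco2b1 or the second to sixth of Abcc5, some of which changed by more. The median over all 9 was 0.08, −0.06 and 0.11, against 0.01, 0.01 and 0.00 for all 11243 genes. Positive and negative changes among the 8 numbered 5 and 3 in ret mutants, 3 and 5 in the cerebrum, and 4 and 4 in the cerebellum of R26P mutants. A p above the threshold does not show that these genes did not differ.

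Between brain regions none of the 9 transporters passed, where 2.12% of all genes passed between wild-type cerebellum and cerebrum, 1.17% between those of R26P controls and 0% between those of R26P mutants (0 genes by limma, with 621 at an unadjusted p under 0.05). Same-numbered arrays of the 2 regions deviated together from their group means, and with the replicate number as a block the genes that passed were 135 in place of 238 in wild type and 475 in place of 132 in R26P controls, again with none of the 9.

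Slco1a5 was at 4.40, 5.03 and 4.98 in wild-type cerebellum against 3.78, 4.14 and 3.84 in wild-type cerebrum, without overlap, a log2 difference of 0.89 ± 0.20 (SE, adjusted p = 0.105 by limma). It was higher in cerebellum in all 3 wild-type pairs, by 0.62, 0.89 and 1.14, and with the replicate number as a block the adjusted p was 0.0667 by limma. In R26P controls Slco1a5 was higher in cerebellum in all 4 pairs, by 1.21, 1.28, 0.14 and 0.80 (mean 0.86). For this difference the adjusted p by limma was 0.418 without the block and 0.0898 with it. In R26P mutants the pairs gave −0.31, −0.62, 0.17 and 0.09. The wild-type difference passed with endothelial genes as the reference (0.97, adjusted p = 0.0391) and without wild-type cerebellum 1 (1.09, adjusted p = 0.0457). The choroid plexus list moved the same way, with an array mean of 11.04 to 11.65 in wild-type cerebellum against 9.90 to 10.43 in wild-type cerebrum. In R26P controls it was 12.41, 12.36, 10.84 and 11.59 in cerebellum against 9.81, 11.10, 10.02 and 10.60 in cerebrum, and pair 3, with the smallest Slco1a5 difference, also had the smallest list difference. In R26P mutants the list was higher in cerebellum in all 4 pairs, and Slco1a5 in 2. The part of choroid plexus RNA in the region difference of Slco1a5 was not tested.

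By its probe set with the highest mean, Slco2b1 was lower in cerebellum in every pair, with log2 differences of −0.10, −0.02 and −0.16 in wild type, −0.29, −0.42, −0.46 and −0.29 in R26P controls, and −0.11, −0.52, −0.18 and −0.52 in R26P mutants. Its region difference did not pass in any of them (adjusted p = 0.575, 0.551 and 0.915 by limma), and with the block the lowest adjusted p of any transporter in any region comparison was 0.0505, that of Slco2b1 in R26P controls. The second probe set of Slco2b1 was higher in cerebellum in R26P mutant pair 1, at 11.39 against 11.35 in cerebrum, and lower in all other pairs. Its region differences did not pass either. The microglia and macrophage mean was also lower in cerebellum in every wild-type and R26P control pair, at 10.37, 10.29 and 10.68 in wild-type cerebellum against 10.96, 10.55 and 11.08 in wild-type cerebrum, and at 11.22, 10.49, 10.91 and 10.99 in R26P control cerebellum against 11.44, 10.56, 11.68 and 11.57 in R26P control cerebrum. In R26P mutants it was lower in cerebellum in 3 of 4 pairs, and its part in the Slco2b1 values was not tested. Abcc5 was higher in wild-type cerebellum in all 3 pairs, by 0.17, 0.19 and 0.44 (adjusted p = 0.183). For Slco1a4, Slco1c1, Abcb1a, Abcg2 and Abcc4, the wild-type difference lay between −0.08 and 0.00, with 95% limits inside −0.33 and 0.17. The mutant region differences did not pass without pair 3 either, and that of Slco1a5 was then −0.28.

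Likeness between genes was measured as Pearson's r over the 24 model arrays, on each array's deviation from the control mean of its own model and region. The arrays share 1 normalization, and a gene that differs between mutants and controls correlates with every other such gene, so r only describes these arrays. The genes most like Slco1a5 were Bmp6, a bone morphogenetic protein (r = 0.98), Fgfbp1, which frees stored fibroblast growth factors (r = 0.97), and Crim1, a membrane protein that binds bone morphogenetic proteins (r = 0.97). Bmp6 changed by 4.95, 4.37 and 3.38 and Fgfbp1 by 9.13, 7.52 and 6.64 log2 units in ret, R26P cerebrum and R26P cerebellum, in the same order of size as Slco1a5.

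Abcg2 and Slco1a4 were the most alike pair among the 9 (r = 0.88), and Slco1a4 was the gene most like Abcg2 of all genes tested. The next pairs were Slco1a4 with Slco1a5 (r = 0.63) and Abcg2 with Slco1a5 (r = 0.62). Slco2b1 ran against Slco1a4 (r = −0.51) and was most like Serpina1b (r = 0.86) and Saa1 (r = 0.83), genes of secreted plasma proteins. Slco1c1 was most like Nufip2 and Kif1b (r = 0.92 each), and the gene most like Abcc1 was Zfp748, at r = 0.66.

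Other organic anion transporting polypeptides were mostly not expressed, and only 3 of 11 listed genes met the filter. Slco3a1, a prostaglandin and thyroxine carrier, fell in all 3 comparisons, by 2.32 in ret mutants (adjusted p = 0.0021 by limma), 2.30 in the cerebrum (adjusted p = 3.4e-04) and 2.85 in the cerebellum of R26P mutants (adjusted p = 1.7e-04) on the log2 scale. Its signal was 5.19 to 6.63 in ret mutants against 8.08 to 8.40 in ret controls, and no group pair overlapped. Slco2a1, the prostaglandin transporter, was 9.38 to 10.59 in R26P mutant against 8.42 to 8.86 in R26P control cerebrum and 9.37 to 10.28 in R26P mutant against 7.78 to 8.40 in R26P control cerebellum, a rise of 1.35 and 1.63 (adjusted p = 0.0101 and 0.0033). In ret mutants Slco2a1 was 6.93 to 8.42 against 8.08 to 9.36 in ret controls, a log2 change of −0.72 that did not pass (adjusted p = 0.255). Slco4a1 did not pass in any of them.

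Of 17 other tested ABC transporters of lipids and drugs, 4 rose and 3 fell in ret mutants, 2 rose and 2 fell in R26P cerebrum, and 2 rose and 4 fell in R26P cerebellum. Of all genes tested, 8% rose and 8.63% fell in ret mutants, and 8.35% rose and 10.3% fell in R26P cerebrum. In R26P cerebellum 6.94% rose and 8.7% fell. The same shares apply to the lists below, and whether a list differed from them was not tested. Abcb1b, the second mouse P-glycoprotein gene, rose by 0.97, 1.00 and 0.81 log2 units (adjusted p = 0.0112, 0.012 and 0.0425 by limma), at signals of 6.51 to 7.22 in ret mutants against 5.73 to 6.28 in ret controls. Abcb1a and Abcb1b are close copies, and whether their probes cross-react was not tested. Abcg1, a cholesterol exporter, rose by 1.40, 0.72 and 0.72 (adjusted p = 8.3e-05, 0.0123 and 0.0248). Abca1, another cholesterol exporter, rose by 1.89 in ret mutants (adjusted p = 0.002) and was 0.28 and 0.58 higher in R26P cerebrum and cerebellum, which did not pass. Abca8a fell in all 3, by 1.96, 2.83 and 2.60, and Abca4 and Abca9 fell in R26P cerebellum, by 1.28 and 1.27.

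Among 10 tested carriers of organic ions and nucleosides, 2 rose and 2 fell in ret mutants, 0 rose and 4 fell in R26P cerebrum, and 0 rose and 3 fell in R26P cerebellum. Slc22a8, the organic anion transporter Oat3 of the blood-brain barrier, fell by 0.87 in ret mutants (adjusted p = 0.0212 by limma) and 0.92 in R26P cerebrum (adjusted p = 0.0119), and its change of −0.64 in R26P cerebellum did not pass (adjusted p = 0.0774). Slc19a1, the reduced folate carrier, fell in all 3 comparisons, with log2 changes of −2.40, −2.18 and −2.13. Slc46a1, the proton-coupled folate carrier, fell by 1.71 and 1.38 in R26P cerebrum and cerebellum, and Slc29a4, a monoamine transporter, by 1.37 and 1.11. Slc29a1, a nucleoside transporter, rose by 1.44 in ret mutants.

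Of 14 tested regulators known to act on transporter genes, 2 rose and 3 fell in ret mutants, 2 rose and 3 fell in R26P cerebrum, and 1 rose and 3 fell in R26P cerebellum. Ppara, a fatty acid receptor, fell by 0.99, 1.19 and 1.27 log2 units. Rxra, the partner of many nuclear receptors, fell by 0.40, 0.40 and 0.45, and Nr3c1, the glucocorticoid receptor, by 0.61, 0.34 and 0.35. Nr1h3, a liver X receptor, rose by 1.98 in ret mutants (adjusted p = 0.0033 by limma) and 1.03 in R26P cerebrum (adjusted p = 0.0124). Nfe2l2, the factor that answers oxidants and electrophiles, rose by 0.64 and 0.44 in the same 2 comparisons. The xenobiotic receptors Nr1i2 and Nr1i3 did not meet the filter, and Ahr did not pass in any comparison.

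**Figure D5:**
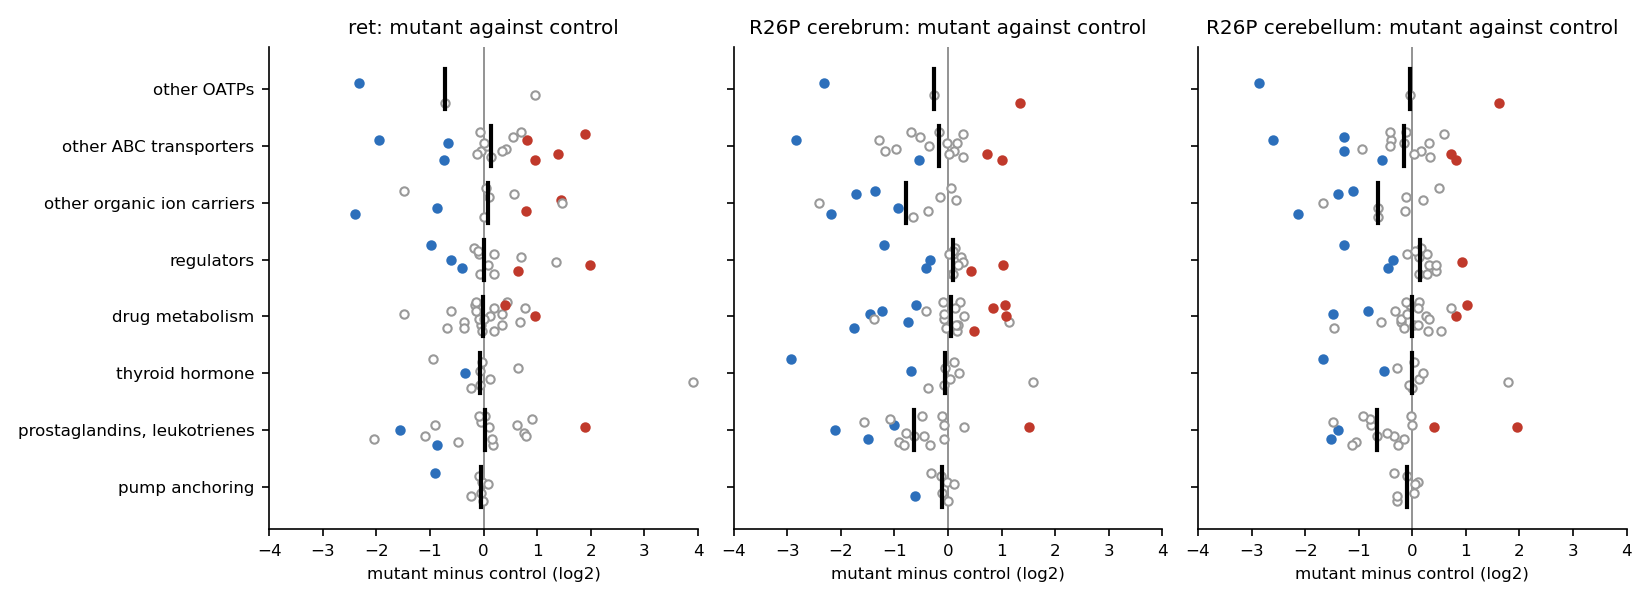
Log2 change in mutants against controls for the tested genes of 8 lists around the 9 transporters, in the 3 mutant comparisons. Red points rose, blue points fell, open points did not pass, and the black bar is the median of the list. List medians lie between −0.79 and 0.14.

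Of 22 tested drug metabolism enzymes, 2 rose and 0 fell in ret mutants, 4 rose and 5 fell in R26P cerebrum, and 2 rose and 2 fell in R26P cerebellum. Mgst1, a membrane glutathione transferase, rose in all 3, by 0.96, 1.08 and 0.82, and so did Gclm, a subunit of the enzyme that starts glutathione synthesis, by 0.39, 1.06 and 1.02. Cyp7b1 and Cyp2d22 fell in both R26P regions. Of 9 tested genes of thyroid hormone handling, 0 rose and 1 fell in ret mutants, and 0 rose and 2 fell in each R26P region. There Dio2, the activating deiodinase, fell by 2.93 in cerebrum and 1.67 in cerebellum, and the receptor gene Thra by 0.68 and 0.53. Dio2 is known in brain mainly from astrocytes, and of 9 tested astrocyte markers 7 were lower and 1 higher in R26P cerebrum, and 6 lower and 1 higher in R26P cerebellum; their part in the Dio2 values was not tested.

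Of 17 tested genes of prostaglandins and leukotrienes, 1 rose and 2 fell in ret mutants, 1 rose and 3 fell in R26P cerebrum, and 2 rose and 2 fell in R26P cerebellum. Ptgis, prostacyclin synthase, rose by 1.89, 1.50 and 1.95 log2 units, and the prostaglandin E2 receptor gene Ptger3 fell by 1.56, 2.11 and 1.39. Hpgd, which degrades prostaglandins after uptake, fell by 1.49 and 1.51 in R26P cerebrum and cerebellum. Of 7 tested proteins that anchor efflux pumps in the membrane, 0 rose in any comparison, and Slc9a3r1 fell in ret mutants (by 0.90) and Cavin1 in R26P cerebrum (by 0.62).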

How the data were processed

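RNA of brain microvascular fragments was measured on 30 arrays in 8 groups, taken from the labels. The deposited values are log2 signals that the authors made with GCRMA 2.6.0 under R 2.4.1, per the submitters' processing notes. Per the labels' protocols, the RNA was amplified with a small-sample protocol. The lowest value is shared by 35.8 to 37.0% of probe sets on each of 24 model arrays and by 32.3 to 32.7% on each of 6 wild-type arrays, and such values have no order. Arrays give no read depth, and their number limits the precision.

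Of 45101 probe sets, 34958 were paired with 1 gene in GEO's platform annotation, 932 with several and 9211 with none. The probe set with the highest mean stood for a gene, and genes above 4 on at least 3 arrays were tested (11243 of 18194). Groups were compared with limma 3.58.1 under R 4.3.3 (lmFit and eBayes, two-sided, Benjamini-Hochberg over all tested genes, threshold 0.05), and the steps were tested on simulated data. The other probe sets of the transporters were tested in a fit over 18851 probe sets. The p-values rest on samples labelled as biological replicates. The transporters and gene lists were chosen with earlier results of these data known. Named genes are the 9 transporters, the 3 genes most like each by correlation, neighbours on the chromosome, and up to 4 genes per list and comparison that passed, ordered by size of change.

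Alternatives were no filter or a gene mean above 6, averaging all probe sets of a gene, eBayes with a trend over intensity and a robust prior, quantile normalization repeated over the arrays compared, an endothelial reference (Cdh5, Pecam1, Tie1, Tek, Cldn5, Esam, Erg and Ptprb), the replicate number as a block, the sex label or Gh as a covariate (for ret the sex label and Xist, and in R26P cerebrum Gh, were added after seeing the data), and leaving out R26P mutant pair 3 or each array in turn. Same-numbered cerebellum and cerebrum arrays deviated together (r = 0.34 to 0.84 over genes, each with its own number best), so these numbers pair the arrays. Between genotypes r was −0.20 to 0.34, and they do not.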

Additional observations from a re-analysis of the deposited data

Results flagged for a closer look

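Of 96 groups of 4 arrays, 9 held an array set far apart from the other 3. Ret mutants stood at 4.34 on all 4 arrays for the third probe set of Abcc5, and this group could not be checked. Chance alone sets 1 apart in about 1 in 20 groups of independent, normally distributed values. Probe sets of 1 gene, and values near the low end of the scale, need not meet that. For Slco2b1, R26P control cerebrum 2 was the low array in both probe sets, at 12.70 in the first and 11.72 in the second. For Abcc1, R26P control cerebellum 3 was low at 8.88. For the first probe set of Abcc5, R26P mutant cerebellum 3 was low at 9.69. The third to sixth probe sets of Abcc5 lie near the low end of the scale: the third had a high array at 4.71 in R26P mutant cerebellum, the fourth a low array at 3.53 in ret controls, the fifth a high array at 4.07 in R26P control cerebellum, and the sixth a high array at 3.20 in R26P mutant cerebrum and a low one at 2.96 in R26P mutant cerebellum.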

How the results depend on the processing

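The rise of Slco1a5 passed in all 3 mutant comparisons under every alternative run, with adjusted p up to 0.0066 in ret mutants, 9.9e-04 in the cerebrum and 0.0107 in the cerebellum of R26P mutants. Over all alternatives of the 9 transporters, 1239 values kept their side of the threshold and their sign, 14 crossed to passing, 0 lost a call and 88 that had not passed changed sign. Within 1 region, leaving out R26P mutant pair 3 and leaving out R26P mutant array 3 are the same fit. Such values are counted more than once here, so the alternatives are not independent checks. The transporters that passed numbered 2 in R26P cerebrum under the mean of probe sets, the intensity trend, renewed quantile normalization, the endothelial reference and without R26P mutant pair 3 (1 to 2 leaving out 1 array), 5 in R26P cerebellum under the endothelial reference (1 to 2 leaving out 1 array), and 1 between wild-type regions under the endothelial reference (0 to 1 leaving out 1 array). The arrays behind these were R26P control 2 for Slco2b1, R26P mutant cerebrum 3 for Slco1c1 and wild-type cerebellum 1 for Slco1a5. Under the R26P cerebrum settings, in the order named, 1914, 2217, 2332, 2691 and 1945 of all genes passed. In R26P cerebellum 4891 of 11243 genes passed under the endothelial reference, which moved the median of all genes there by −0.33. Over all genes, 1870 passed in ret mutants, against 1229 without a filter, 987 with the replicate block, 821 with Gh as a covariate, 1051 with the sex label as a covariate (chosen after seeing the data) and 1153 to 1931 leaving out 1 array. In R26P cerebrum 2097 passed, against 1390 without a filter, 1278 with the replicate block and 1387 to 1945 leaving out 1 array. In R26P cerebellum 1758 passed, against 1081 without a filter, 4891 with the endothelial reference, 1117 without mutant pair 3 and 1117 to 1572 leaving out 1 array. Between wild-type regions 238 passed, against 58 without a filter, 151 with a gene mean above 6, 446 with the endothelial reference, 135 with the replicate block and 12 to 159 leaving out 1 array. Between R26P control regions 132 passed, against 47 without a filter, 68 with the mean of probe sets, 203 with the endothelial reference, 475 with the replicate block and 48 to 193 leaving out 1 array. Between R26P mutant regions 0 passed by limma (621 at an unadjusted p under 0.05), against 1 without a filter, 15 without pair 3, 11 with the replicate block and without pair 3 (an alternative chosen after seeing the data) and 0 to 42 leaving out 1 array. For the R26P effect between regions 13 passed, against 6 without a filter, 0 with a gene mean above 6, 4 with the mean of probe sets, 29 with the replicate block, 6 without pair 3 and 6 to 14 leaving out 1 array. Between the ret and R26P cerebrum effects 377 passed, against 177 without a filter, 209 with the endothelial reference, 239 with the replicate block, 111 with Gh as a covariate and 127 to 611 leaving out 1 array. The replicate block changed 0 of 72 transporter calls. The cause of these shifts was not tested. Signals near the lowest value limit the size of low levels, and those near the highest value limit that of Slco1a4.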
